A study of Mus musculus with 4 samples.

Results

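The semaphorin, plexin and neuropilin genes form a signalling family of 20 ligands and 11 receptors among the 21827 protein-coding genes annotated in the mouse. They were taken by symbol: the semaphorins (Sema genes) are the ligands, and the 9 plexins (Plxn genes) with Nrp1 and Nrp2 are the receptors. Open chromatin was mapped by ATAC-seq, a method that marks accessible DNA with a transposase. The material was incisor dental mesenchyme of wild-type C57BL/6 mice at 4 weeks of age, with no treatment. The 4 samples are lanes of 1 library in a single group, so ligand genes were compared with receptor genes within that library and no condition, replicate error or test between animals could be had. The sources used here do not say whether animals were pooled. The members held 618 of the 121574 listed regions, which are called open regions here, 381 at ligands and 237 at receptors. Of all listed regions, 7101 had no reads in this library, among them 17 at ligands and 13 at receptors. Because 25750 regions abutted another region, counts of regions need not be counts of separate open sites. A region belonged to the gene with the nearest transcription start site (TSS) of a protein-coding transcript, and a promoter region was one that overlapped 1 kb either side of a TSS of the gene.

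Semaphorins are secreted or membrane-bound proteins that were first known as repellents of growing axons. Plexins are their receptors and act on small GTPases and the cytoskeleton through their intracellular part, whereas the secreted class 3 semaphorins mostly need a neuropilin as coreceptor to reach a plexin. In teeth, Sema3a from the mesenchyme of the developing tooth is known to hold back nerve fibres until the tooth is ready for them, and in other tissues the family also guides blood vessels, immune cells and bone cells.

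The library had 2297894 reads in regions, with a median of 7 reads a region. A gene with a region had a median of 85 reads, and a gene with a promoter region a median of 67 promoter reads. All 14 dental mesenchyme markers had a region and 13 had a promoter region (Barx1 had none), with a median of 330.5 reads from 69 to 1061. None of the 8 leukocyte markers had a promoter region. The 6 with a region had a median of 39.5 reads, from 2 to 591, the highest at Ptprc. Promoter regions were present at 7 of 8 endothelial, 6 of 7 epithelial, 5 of 7 neuronal and 3 of 6 Schwann cell markers, against 64.6% of all protein-coding genes, with median reads of 158, 88, 103 and 78.5 over all their regions. Median promoter reads were 122 for dental mesenchyme markers, 15 for endothelial, 26.5 for epithelial, 40 for neuronal and 22 for Schwann cell markers with a promoter region. The endothelial count includes Emcn, whose promoter region had 0 reads. The part of such cells in the values below was not tested, and in bulk chromatin fewer cells of a type and less open chromatin per cell cannot be told apart. Intervals in parentheses are exact Poisson 95% intervals of a read count, cover counting error only and assume independent reads.

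The promoter sequences show the letters just upstream of annotated starts at some of the most and least open promoters of the family. Where starts lie close together, the outermost was taken. Each line gives the 150 bases just upstream of a TSS, 5′ to 3′ on the strand of the gene, from the RefSeq copy of the mm10 (GRCm38) genome, and capitals mark GC boxes (GGGCGG) and CCAAT boxes (CCAAT), read on both strands. Sema4c and Sema6d carried the most promoter reads among ligands and Sema3g was among the lowest, Plxnb2 and Plxnd1 carried the most among receptors, and Plxnb3 had no region.
Sema4c, chr1:36558350-36558499, minus strand: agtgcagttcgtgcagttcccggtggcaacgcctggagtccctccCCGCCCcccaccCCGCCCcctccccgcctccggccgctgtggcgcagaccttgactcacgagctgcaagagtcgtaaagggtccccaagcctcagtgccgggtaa
Sema6d, chr2:124610146-124610295, plus strand: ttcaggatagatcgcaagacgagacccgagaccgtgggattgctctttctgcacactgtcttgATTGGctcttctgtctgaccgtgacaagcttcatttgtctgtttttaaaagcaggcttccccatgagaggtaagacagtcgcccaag
Sema3g, chr14:31217710-31217859, plus strand: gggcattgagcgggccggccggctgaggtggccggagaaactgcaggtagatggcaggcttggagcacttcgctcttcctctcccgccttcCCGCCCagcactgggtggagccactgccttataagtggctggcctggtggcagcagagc
Plxnb2, chr15:89180789-89180938, minus strand: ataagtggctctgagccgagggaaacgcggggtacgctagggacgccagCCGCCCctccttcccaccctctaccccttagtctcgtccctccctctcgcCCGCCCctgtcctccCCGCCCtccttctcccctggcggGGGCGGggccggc
Plxnd1, chr6:115995006-115995155, minus strand: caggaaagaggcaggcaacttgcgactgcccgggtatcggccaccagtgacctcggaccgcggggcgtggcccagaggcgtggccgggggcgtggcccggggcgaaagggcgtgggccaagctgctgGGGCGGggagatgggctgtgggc
Plxnb3, chrX:73756949-73757098, plus strand: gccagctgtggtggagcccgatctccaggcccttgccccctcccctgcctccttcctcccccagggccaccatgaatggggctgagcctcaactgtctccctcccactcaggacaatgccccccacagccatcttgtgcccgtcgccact
The window of Plxnb2 held 4 matches, that of Sema4c 2, those of Sema6d, Sema3g and Plxnd1 1 each and that of Plxnb3 0. Listed regions covered 35 of the 150 bases at Sema4c, and all 150 at Sema6d, Sema3g, Plxnb2 and Plxnd1. The window of Sema4c lies upstream of its outermost start. Its open region reaches mainly into the gene and is centred at its inner starts, chr1:36557526 and chr1:36557557, whose upstream sequence is not printed. Of 41433 such windows at all protein-coding TSSs, 37.0% held a GC box and 25.1% a CCAAT box.

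Open DNA away from promoters was as varied. The next lines give 120 bases of the most-read region elsewhere of 5 members, all on the plus strand of mm10 and centred on 1 motif match, in capitals. The match is an AP-1 motif (TGANTCA) at Sema6d and Plxna1, a RUNX motif (TGTGGTT) at Sema3a, a homeobox motif (TAATTA) at Plxna4 and a TEAD motif (GGAATG) at Nrp1, each sought on both strands.
Sema6d, chr2:124245074-124245193, plus strand: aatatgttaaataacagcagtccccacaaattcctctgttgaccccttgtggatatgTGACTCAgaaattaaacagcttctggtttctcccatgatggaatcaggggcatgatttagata
Sema3a, chr5:12938999-12939118, plus strand: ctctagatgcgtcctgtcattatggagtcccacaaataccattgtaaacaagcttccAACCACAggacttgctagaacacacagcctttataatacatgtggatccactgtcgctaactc
Plxna1, chr6:89359794-89359913, plus strand: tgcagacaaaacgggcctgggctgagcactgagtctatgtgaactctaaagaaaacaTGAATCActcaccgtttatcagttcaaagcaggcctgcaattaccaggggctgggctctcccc
Plxna4, chr6:32467139-32467258, plus strand: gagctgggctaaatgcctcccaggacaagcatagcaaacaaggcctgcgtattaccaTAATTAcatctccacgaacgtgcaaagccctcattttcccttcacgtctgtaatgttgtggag
Nrp1, chr8:128357628-128357747, plus strand: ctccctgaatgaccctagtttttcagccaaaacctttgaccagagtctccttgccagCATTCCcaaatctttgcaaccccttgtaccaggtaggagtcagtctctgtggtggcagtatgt
These windows were picked to contain their match. In windows of equal length at the centre of all 33719 regions elsewhere with at least 10 reads, AP-1 was found in 4.01%, RUNX in 5.11%, TEAD in 8.29% and homeobox in 9.46%. A match is a run of letters, and binding was not measured.

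Nearly the whole family lay in open chromatin. A promoter region was found at 20 of 20 ligand genes and 10 of 11 receptor genes, against 64.6% of all protein-coding genes, and the same 30 genes had a region nearest to them, against 77.0% of all genes. The exception was Plxnb3, the plexin known as a receptor of Sema5a. The table lists no region there, which is not a measured absence of open DNA. It lies on the X chromosome, where 49.2% of 948 genes had a promoter region, against 65.9% of 20696 autosomal genes. Its X-linked relative Plxna3 had 44 reads in a single promoter region.

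Ligand genes had fewer reads than receptor genes in the median. The medians were 202.5 reads in 14.5 regions for ligands and 318 reads in 24.5 regions for receptors, and the ranges overlapped, from 20 to 812 for ligands and from 44 to 596 for the 10 receptors with a region. On the log2(CPM + 1) scale, with CPM relative to all reads in regions, the median level was 6.48 in ligands and 7.11 in receptors, a difference of -0.64. At least 2-fold more reads than the median gene were found at 12 of 20 ligands (60%) and 8 of 10 receptors (80%), against 26.4% of all genes with a region. At least 2-fold fewer were found at 3 ligands (15%) and 0 receptors, against 30.0% of all genes.

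The sequence from which a gene could draw regions was also shorter in ligands. The sequence nearest to the TSSs, called the span here, had a median of 77.3 kb in ligands and 332 kb in receptors. Over all genes with a region it was 56.4 kb. Per 100 kb of span the order turned round, with a median of 167 reads in ligands and 119 in receptors, and a log2 difference of 0.54. Over all genes with a region the median was 127 reads per 100 kb. Per kb of region the medians were 41.2 reads in ligands and 50.4 in receptors, and this difference was -0.28. All genes with a region were ordered by span and cut into 10 bins of equal number. The bin of the longest spans runs from 320 to 3907 kb, so spans are matched only loosely there. Within these bins of like span, 15 of 20 ligands and 9 of 10 receptors lay above the median. Over all 20 ligands the median was 1.66-fold that of the bin, and over all 10 receptors 2.22-fold.

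**Figure D1:**
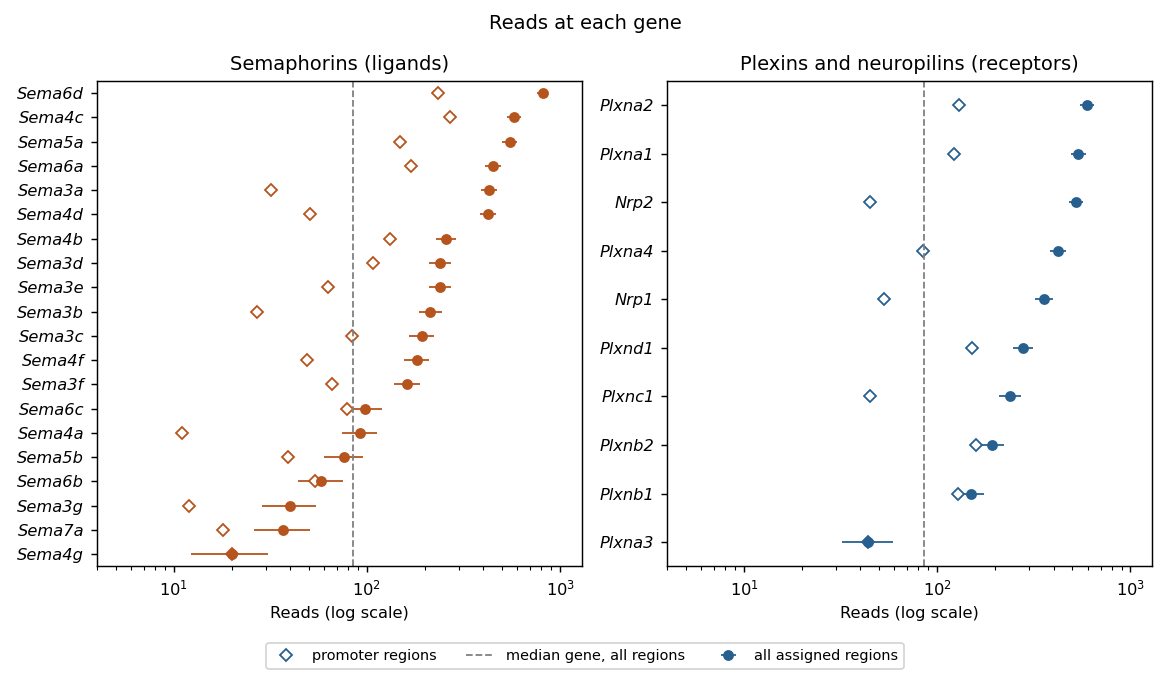
Reads of each ligand gene (left) and each receptor gene with a region (right), on a log axis. Filled circles give reads over all assigned regions with exact 95% Poisson intervals, open diamonds give reads in promoter regions, and the dashed line marks the median gene at 85 reads; 15 of 20 ligands and 9 of 10 receptors lie above it.

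**Figure D2:**
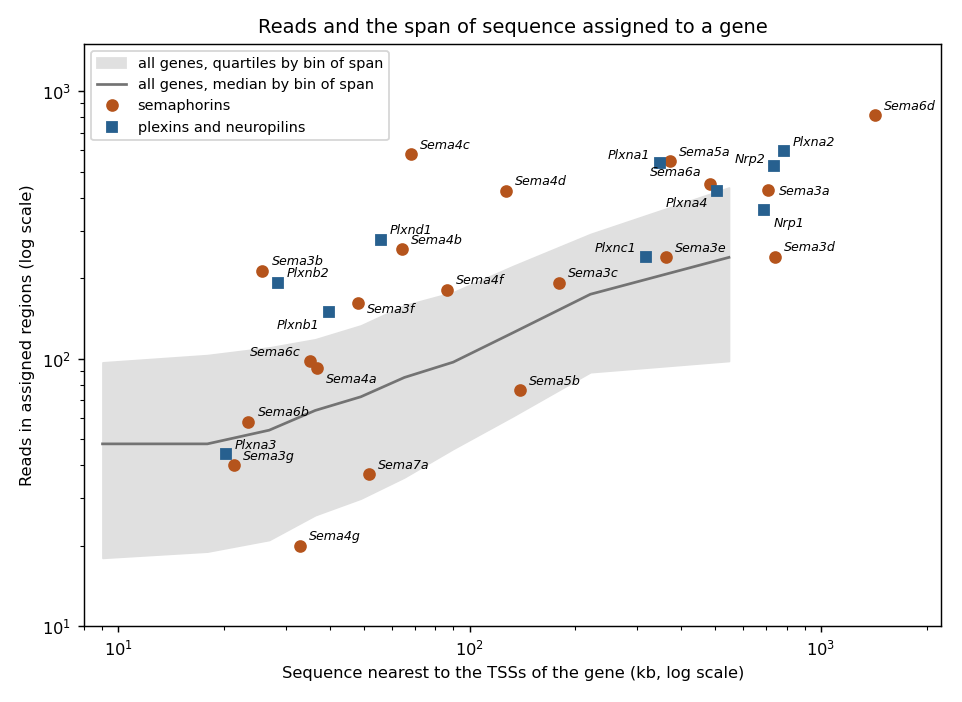
Reads of each member against its span in kb, both on log axes, with the median (line) and quartiles (grey band) of all genes with a region by bin of span (10 bins). Sema4c lies furthest above the line for its span, and Sema4g furthest below it.

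Reads and span rose together across members. Spearman's rho was 0.72 over the 20 ligands and 0.89 over the 10 receptors, against 0.41 over all 16816 genes with a region. These are descriptions over genes of 1 library, and genes are not replicates.

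Sema6d, a membrane-bound ligand of class A plexins, had the most reads of the family. It carried 812 reads (757 to 870) in 74 regions over 1425 kb of chromosome 2, with 234 at its promoters and 578 elsewhere. Its most-read region, chr2:124609773-124610896, held 212 reads (184 to 243) at an inner start, and its most-read region elsewhere, chr2:124244617-124245214, held 82 (65.2 to 102) in an intron 155 kb downstream of the first start. Its span is the longest of the family, and its reads were 3.40-fold those of the median gene in the bin of the longest spans. That bin has a median span of 547 kb, below the 1425 kb of Sema6d. Per 100 kb of span Sema6d had 57.0 reads, against a median of 127 over all genes with a region.

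Sema4c, a membrane-bound ligand of Plxnb2, combined the most promoter reads with a short span. It had 580 reads (534 to 629) within 68.3 kb of chromosome 1, 6.82-fold the median of genes of like span. A single promoter region, chr1:36556658-36558384, held all of its 269 promoter reads (238 to 303), more than 94.8% of genes with a promoter region. The other 311 reads lay upstream, 0 of them in the body of Sema4c and most of them in introns of the neighbouring gene Fam178b. The largest of these, chr1:36580420-36580785, had 51 reads (38.0 to 67.1) and lay 22.3 kb upstream. Which gene these upstream regions act on was not tested. Restricted to the gene body and 5 kb upstream, Sema4c had 293 reads.

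Sema5a, a membrane-bound ligand with thrombospondin repeats, was the next of the ligands. It had 548 reads (503 to 596) over 372 kb of chromosome 15, with 148 at its promoter and 402 elsewhere. The promoter region chr15:32244356-32245116 held 139 reads (117 to 164), and an intronic region, chr15:32419367-32419744, held 55 (41.4 to 71.6) at 175 kb from the start. Its relative Sema5b had 76 reads, 39 of them at the promoter, and lay below the median of genes of like span (0.61-fold).

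Sema6a, which also binds class A plexins, had 451 reads (410 to 495). Its 169 promoter reads include 109 from a region whose midpoint lies 1.34 kb upstream and which overlaps the edge of the window, so these reads also count among the 391 elsewhere. Sema6c had 98 reads and Sema6b 58. Most of these lay at promoters, 79 at Sema6c and 54 at Sema6b.

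Among the class 3 semaphorins, all secreted, Sema3a had the most reads, few of them at a start of a protein-coding transcript. It had 428 reads (388 to 471), with 32 (21.9 to 45.2) at these promoters and 396 (358 to 437) elsewhere. The promoter region chr5:13399225-13399648 held 28 reads. The region with most reads was chr5:12938573-12939348, with 91 (73.3 to 112), in sequence outside protein-coding genes. It lay 458 kb upstream of the nearest protein-coding start and 186 kb upstream of the annotated 5′ end of Sema3a, since that end, 271 kb before the first protein-coding start, belongs to noncoding transcripts of the gene and was not counted as a TSS. A region over this outer end, chr5:13125244-13125919, held 37 reads, more than the 32 at the promoters counted. Within 100 kb of a protein-coding TSS, Sema3a kept 110 reads. Such regions were nearest to Sema3a by sequence alone, and their target was not tested.

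Sema3f, the ligand that prefers Nrp2, had 162 reads (138 to 189) within 48.1 kb of chromosome 9. Its promoters held 66 reads (51.0 to 84.0), of which the region chr9:107709583-107710287 had 59, and the most-read region elsewhere, chr9:107716888-107717490, had 25 at 6.71 kb upstream. Sema3b, a related ligand close by on the same chromosome, had 213 reads but 27 at its promoter. Most of the rest came from 1 region, chr9:107612550-107613223, which lay 3.66 kb upstream and held 124 reads (103 to 148), more than 99.6% of all regions elsewhere.

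Sema3d, Sema3e and Sema3c share chromosome 5 with Sema3a. Sema3d had 240 reads, Sema3e, which binds Plxnd1 without a neuropilin, had 239, and Sema3c, known from heart outflow tract development, had 192. Their promoters held 107, 63 and 84 reads in this order, each more than the 32 at the protein-coding starts of Sema3a, whose interval ended at 45.2. Sema3g, a class 3 ligand made by blood vessels, had 40 reads (28.6 to 54.5), with 12 at its promoter.

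The class 4 ligands covered almost the whole range. After Sema4c came Sema4d, the ligand of Plxnb1 known from immune cells and osteoclasts, with 424 reads (385 to 466), of which 51 lay at its promoters and 373 elsewhere. A region in its intron, chr13:51737737-51738247, had 66 reads (51.0 to 84.0). Sema4b had 257 reads and Sema4f 181. Restricted to the gene body and 5 kb upstream, Sema4f had 62 reads. Sema4a, a ligand that acts on T cells, had 92 reads and 11 at its promoters. Its most-read region, chr3:88449620-88450021, held 46 (33.7 to 61.4) and was centred on a coding exon.

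Sema4g, known as a ligand of Plxnb2 beside Sema4c, had the fewest reads of the ligands. Its 20 reads (12.2 to 30.9) all lay in 3 promoter regions, the largest of which, chr19:44989031-44989280, had 9, and no region was listed elsewhere. This was 0.31-fold the median of genes of like span (32.9 kb). Sema7a, the membrane-anchored ligand of Plxnc1 and integrins, had 37 reads (26.1 to 51.0), 0.51-fold the median of genes of like span.

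**Figure D3:**
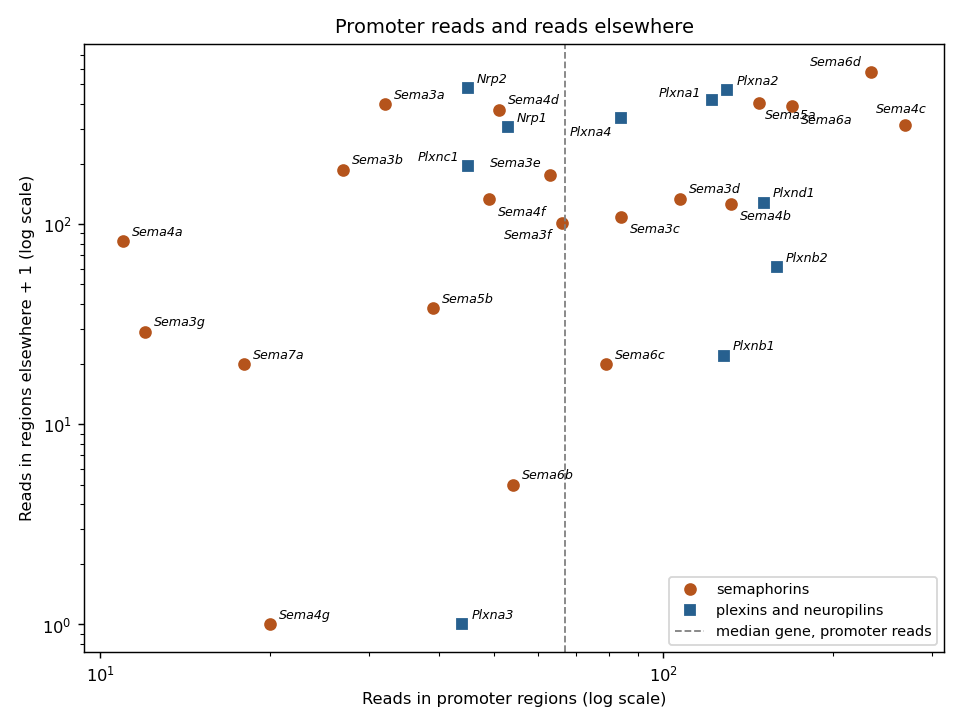
Reads in promoter regions against reads elsewhere plus 1 for the 30 members with a region, on log axes, with ligands as circles and receptors as squares. The dashed line marks the median gene at 67 promoter reads; Sema3a, Sema3b, Nrp2 and Plxnc1, among others, lie left of it with over 100 reads elsewhere, and Plxnb1, Plxnb2 and Sema6c lie right of it with under 100.

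Of the receptors, Plxna2 and Plxna1 held the most reads. Both are class A plexins, which pair with neuropilins or bind class 6 semaphorins directly. Plxna2 had 596 reads (549 to 646) in 48 regions over 784 kb of chromosome 1, with 130 at its promoter and 466 elsewhere. Its promoter region chr1:194619585-194620278 held 85 reads, and the most-read region elsewhere, chr1:194295031-194295394, held 46 (33.7 to 61.4) at 325 kb upstream. Of the reads elsewhere, 120 lay in the body of Plxna2 and 346 outside it, and 247 of all its reads lay within 100 kb of the TSS.

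Plxna1 had 538 reads (493 to 585) within 347 kb of chromosome 6, with 122 at its promoter and 416 elsewhere. Its reads lay closer, with 475 within 100 kb. The most-read region was intronic, chr6:89359766-89360177, with 85 reads (67.9 to 105), against 75 in the promoter region chr6:89362457-89363057, and these intervals overlap.

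Plxna4 had 424 reads (385 to 466), 340 of them elsewhere, led by an intronic region, chr6:32467043-32467656, with 94 reads (76.0 to 115) at 121 kb from the start. Plxna3 had the fewest reads of the receptors with a region, 44 (32.0 to 59.1), all in the promoter region chrX:74328728-74329246. Its span was 20.3 kb, and its reads were 0.92-fold the median of genes of like span.

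Both neuropilins had most of their reads outside a modest promoter. Nrp2, which takes up Sema3f and also vascular growth factors, had 524 reads (480 to 571), 45 (32.8 to 60.2) of them at its promoter and 479 elsewhere. Nrp1, the coreceptor of Sema3a, had 358 (322 to 397), with 53 (39.7 to 69.3) at the promoter and 305 elsewhere. Their promoter regions were chr1:62703152-62703616 with 45 reads at Nrp2 and chr8:128358895-128359844 with 48 at Nrp1. A region close to the promoter of Nrp1, chr8:128356865-128357834, held 77 reads (60.8 to 96.2) at 1.94 kb upstream, whereas the most-read region elsewhere of Nrp2, chr1:62766832-62767192, held 38 in an intron. Their spans were 738 kb at Nrp2 and 690 kb at Nrp1, and they had 2.19-fold and 1.50-fold the median of genes of like span. Restricted to the gene body and 5 kb upstream, Nrp2 had 326 reads and Nrp1 267. Some of the regions elsewhere of Nrp2 lay in the body of the neighbouring gene Pard3b, and their target was not tested.

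The class B plexins with a region had the reverse layout, with most reads at the promoter and short spans. Plxnb2, a receptor of Sema4c, had 159 promoter reads (135 to 186) and 60 elsewhere, with 1 region of 27 reads counted in both. Plxnb1, the receptor of Sema4d, had 128 (107 to 152) and 21. Plxnd1, a receptor of vessel-forming cells, also had a short span (56.0 kb), with 151 (128 to 177) at the promoter and 127 (106 to 151) elsewhere. These intervals overlap. Relative to genes of like span, Plxnd1 had 3.86-fold, Plxnb2 3.56-fold and Plxnb1 2.33-fold the median reads. Plxnc1, the receptor of Sema7a, had 239 reads (210 to 271), 45 at its promoter and 194 elsewhere.

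Known ligand and receptor pairs showed no single direction in promoter reads. Of 11 pairs picked from general knowledge of the family, 10 had a promoter region at both genes, and the ligand was higher in 3 of them and lower in 4, with intervals that did not overlap. The ligand was higher for Sema4c and Plxnb2 (269 and 159 reads), Sema6d and Plxna1 (234 and 122) and Sema6a and Plxna4 (169 and 84). It was lower for Sema3e and Plxnd1 (63 and 151), Sema4d and Plxnb1 (51 and 128), Sema4g and Plxnb2 (20 and 159) and Sema7a and Plxnc1 (18 and 45). Intervals overlapped for Sema3a and Nrp1 (32 and 53), Sema3f and Nrp2 (66 and 45) and Sema6a and Plxna2 (169 and 130). Of the 169 reads of Sema6a, 109 come from a region centred 1.34 kb upstream, at the edge of its window. Both relations of Sema6a, and so the counts above, depend on including that region. Sema5a had 148, and Plxnb3 had no region. Other pairs exist, and the counts depend on those chosen. A gene with several promoters has more sequence in its windows, which enters these sums. Open promoters on both sides do not show which cells carry them, since all cells of the tissue were measured together.

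Promoters alone gave ligands a median of 58.5 reads and receptors a median of 103. The median promoter level was 4.72 in ligands and 5.49 in receptors on the log2(CPM + 1) scale, a difference of -0.77. At least 2-fold more promoter reads than the median gene were found at 4 of 20 ligands and 2 of 10 receptors. The share of all genes with a promoter region was 22.8%. Sema6a is among these ligands, with 109 of its 169 promoter reads in a region centred outside the window. At least 2-fold fewer were found at 6 ligands and 0 receptors, against 27.6%. Over the whole family the median was 64.5 promoter reads, against 67 for the median gene. Elsewhere the median was 128.5 reads in ligands and 249.5 in receptors, against 22 over all genes with a region. These counts were not matched for span, which was longer in members (medians 77.3 and 332 kb, against 56.4 kb). No promoter region of a member overlapped the promoter window of another protein-coding gene, against 17.0% of genes with a promoter region that shared one.

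The share of reads at promoters was lower than over all genes, without matching for span. Regions centred within 1 kb of a protein-coding TSS took 30.1% of ligand reads and 27.9% of receptor reads, against 50.5% over all genes. Introns took 44.0% in ligands and 41.7% in receptors, against 21.4%, and sequence outside protein-coding genes took 24.5% in ligands and 28.8% in receptors, against 26.4%. Of the reads away from promoters, 33.6% in ligands and 42.2% in receptors lay over 100 kb from the TSS, against 25.8% over all genes. The body of the gene itself held 56.4% of these reads in ligands and 49.8% in receptors, and bodies of other protein-coding genes held 8.61% and 10.2%.

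**Figure D4:**
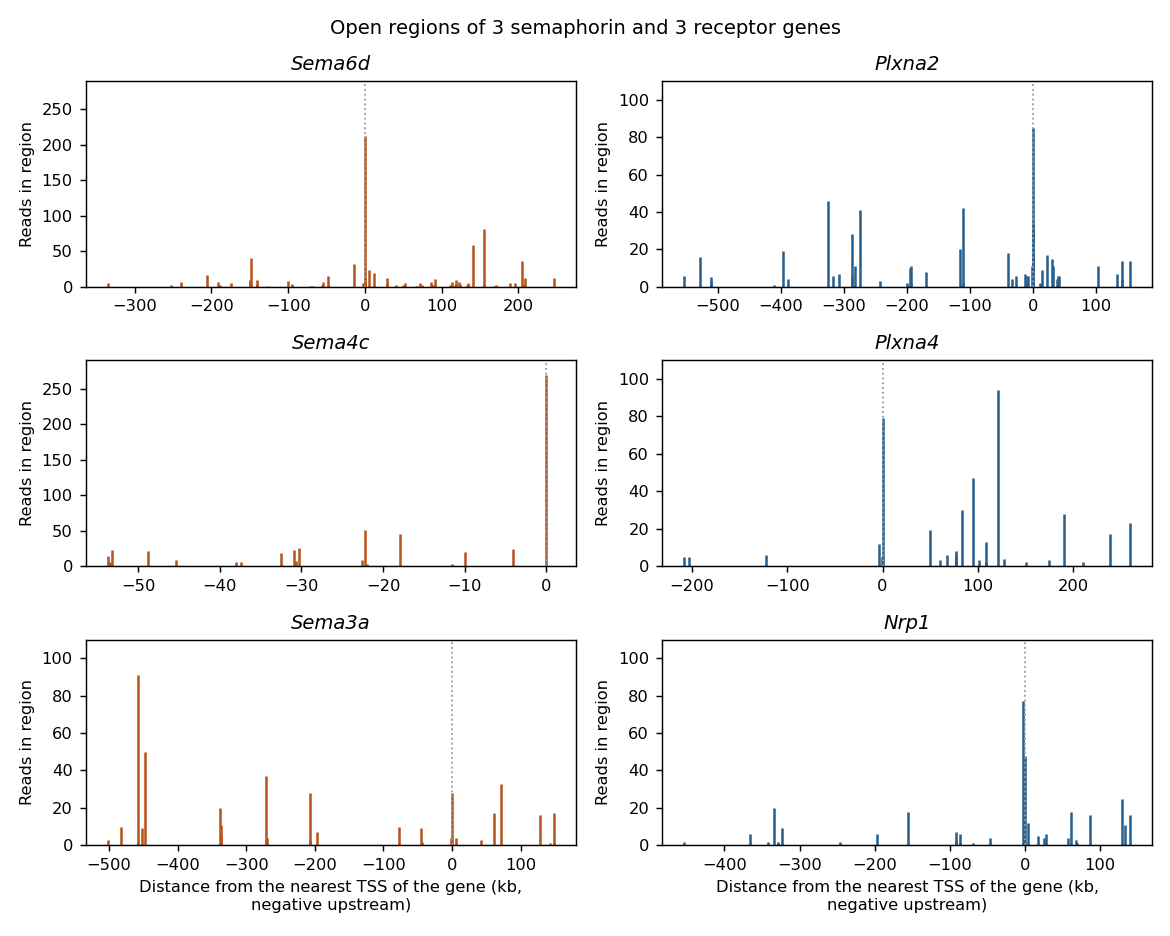
Reads of every open region of Sema6d, Sema4c and Sema3a (left, ligands) and of Plxna2, Plxna4 and Nrp1 (right, receptors) against the distance from the nearest protein-coding TSS of the gene in kb, negative upstream; the read axis differs between panels. Away from its promoter Sema4c has regions upstream only, Sema3a has its tallest region 458 kb upstream of its nearest protein-coding start, and Plxna4 has its tallest 121 kb downstream.

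In all, 13 members, 11 ligands and 2 receptors, have more than 1 annotated promoter, counted as groups of TSSs over 2 kb apart. These are starts of protein-coding transcripts, so the outer end of Sema3a is not among them. In 9 of the 13 a promoter had no listed region, against 74.6% of all 2428 such genes with reads, and a missing region is not a measured absence of open DNA. Sema6d was open at its inner promoter, with 214 reads (186 to 245), with 20 (12.2 to 30.9) at the first and no region at the last. Sema3a and Sema3b had no region at the first promoter and 32 and 27 reads at the second. Sema6a, Sema6c, Sema4d, Sema3f and Plxna1 showed the opposite, with 169, 79, 51, 66 and 122 reads at the first and no region at the second. Sema4b was open at both, with 59 reads (44.9 to 76.1) at the first and 73 (57.2 to 91.8) at the second, which do not differ beyond counting error. Plxnb2 had 132 reads at the first and 27 at the second.

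**Figure D5:**
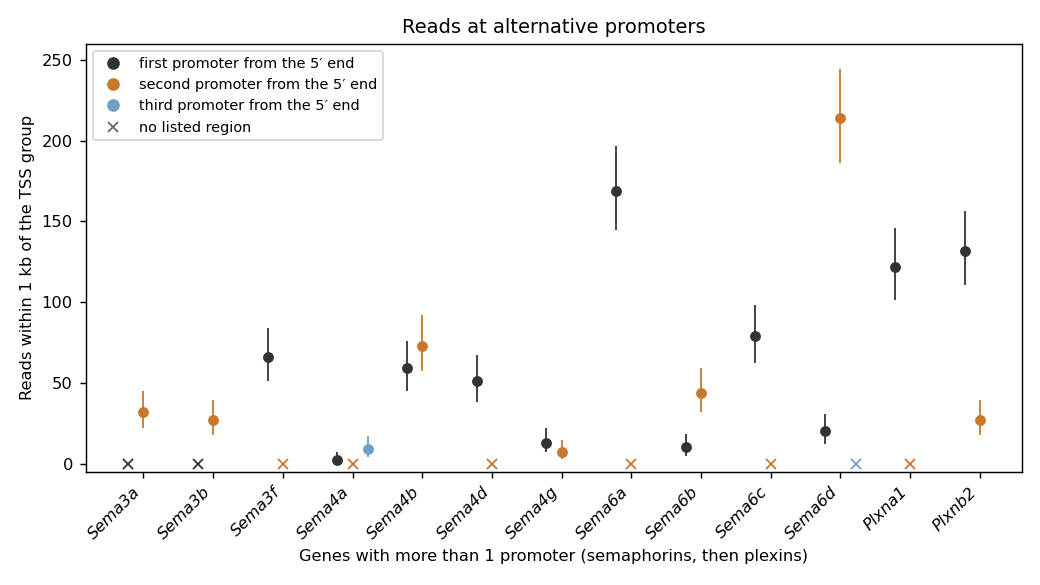
Reads within 1 kb of each promoter of the 13 members with more than 1, with exact 95% Poisson intervals; colours give the order of the promoters from the 5′ end of the gene, and crosses mark promoters with no listed region. Sema6d and Sema6b have most reads at the second promoter, and Sema6a, Sema6c and Plxna1 at the first.

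Promoter reads were mostly higher at genes with a start rich in CG pairs. CpG content was taken as the ratio of observed to expected CG pairs in the 500 bases either side of a TSS, at the TSS of each gene with the highest ratio. A ratio of at least 0.6 was found at 15 of 20 ligands and 9 of 11 receptors, against 50.6% of all genes and 73.9% of genes with a promoter region. The 24 members at or above it had a median of 84 promoter reads (range 18 to 269), and the 7 below it, Sema3b, Sema3f, Sema3g, Sema4a, Sema4f, Plxna3 and Plxnb3, had a median of 27 (range 0 to 66). These ranges overlap, and Spearman's rho over the 31 genes was 0.49, with no like value taken over all genes. Promoter reads were summed over all starts of a gene, so they need not lie at the start with the highest ratio. Between promoters of 1 gene, the most-read promoter was also the one with the highest ratio in 12 of 13 members, against 85.5% of all such genes, and the exception was Sema6b. The lowest ratio was that of Plxnb3, 0.099, and Sema3g and Sema4a had 0.18 and 0.27.

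Motif shares are set beside those of all open regions of the same class. Of 194 member regions elsewhere with at least 10 reads, 10.3% held an AP-1 motif, against 13.1% of all 33719 such regions, 14.4% a RUNX motif, against 13.6%, 18.6% a TEAD motif, against 24.2%, and 22.2% a homeobox motif, against 20.6%. The motif of the insulator protein CTCF was in 3 of the 194, or 1.55%, against 4.40%. Ligands and receptors had a RUNX motif in 16.5% and 11.8% of their regions elsewhere and an AP-1 motif in 9.17% and 11.8%. At the 39 member promoter regions with at least 10 reads, a GC box stood in 84.6%, against 79.6% of all 13666. A CCAAT box stood in 47.8% of ligand and 18.8% of receptor promoter regions, which are 11 of 23 and 3 of 16 regions, against 47.4%. These shares were not tested.

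Partners of the family were counted against all genes, of which 77.0% had a region and 64.6% a promoter region, while 26.4% and 30.0% of genes with a region lay at least 2-fold above and below the median gene. Of 15 coreceptors and other binding partners, 14 had a region and 13 a promoter region. In all, 8 lay at least 2-fold above and 2 at least 2-fold below the median gene, with a median of 184 reads over the list. Their median span was 217 kb, against 56.4 kb over all genes with a region. Per 100 kb of span their median was 70.9 reads, against 127. Robo1, a Slit receptor, had 852 reads over a span of 2048 kb, and Nrcam, an adhesion molecule of neuropilin complexes, and Itgb1, an integrin subunit that Sema7a uses, had 309 each. Timd2, a Sema4a receptor of immune cells, had 10 and no promoter region, and the adhesion molecule L1cam had no region. Kdr and Flt1, vascular growth factor receptors that are also endothelial markers, had 54 and 52 promoter reads, beside 13 at Cdh5 and no promoter region at Pecam1.

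Of 34 effectors inside the cell, 33 had a region (77.0% of all genes) and 32 a promoter region (64.6%). In all, 14 lay at least 2-fold above (26.4%) and 6 at least 2-fold below (30.0%) the median gene. The median was 160 reads over the list. Their median span was 86.3 kb, against 56.4 kb, and per 100 kb of span their median was 183 reads, against 127. Gsk3b, a kinase that phosphorylates collapsin response mediators, had 871 reads, 762 of them at its promoter. Rnd3, a small GTPase, had 643 and Dpysl3, a collapsin response mediator, had 456, whereas its relative Dpysl5 had 26. Rhoa, the GTPase that plexins of class B activate, had no region nearest to it because of a neighbouring start, and 186 promoter reads.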

How the data were processed

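ATAC-seq of incisor dental mesenchyme was analysed from the authors' tables. Per the labels' protocols, BWA-MEM aligned the reads to mm10 and MACS2 called the peaks; STAR 2.6.1d and Partek appear in the submitters' processing notes, without a role. The sources used here do not say whether reads were shifted or duplicates removed, or whether a count is a read or a fragment; duplicates would raise some counts and make the intervals too narrow. The authors deposited CPM values for 121574 regions, in which 1 read had been added to each. Whole reads were recovered from the value of 1 read in 99.9% of regions (tolerance 0.01 read, 84 exceptions). The authors also deposited expected counts for 16382 of the regions, which differed from the recovered reads by at most 0.00155. The divisor implied by that step holds 11.1% of its reads in regions. A further value column (1 in all) belongs to none of the samples and was left out.

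The values of the 4 lanes stand under 1 name, although the design had assumed a value per lane, so no replicate error, test or p-value was possible. Regions were assigned by midpoint to the nearest TSS of a protein-coding transcript in the GENCODE vM21 basic annotation (starts of noncoding transcripts were not counted); promoter reads came from regions overlapping 1 kb either side of a TSS, and reads elsewhere from assigned regions centred outside such windows, so the sums can share a region. Levels are log2(CPM + 1) over reads in regions. Every member is named; the 3 ligands and 3 receptors with the most reads, the 1 of each with the fewest, and the Sema3a, Sema3f, Nrp1, Nrp2 and Plxna1 axis are given in full, and of the partner lists the 3 with the most and the 1 with the fewest reads. The members and lists were chosen with earlier results of these data known. Motifs were exact matches on both strands. Poisson intervals have 95% confidence. Python 3.11.15, pandas 2.3.3, scipy 1.17.1 and pysam 0.24.0 were used, and the assignment was checked on simulated regions.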

Additional observations from a re-analysis of the deposited data

How the results depend on the processing

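The median level of ligands minus that of receptors was -0.64 over all regions and lay below 0 in 13 of 14 alternatives. Per 100 kb of nearest sequence it turned to 0.54. It moved beyond counting error to -0.28 per kb of region, -0.35 with the most-read region alone, -1.19 with regions over 1 kb from every TSS alone and -0.35 with plexins alone as receptors. Against genes of like span, chosen after seeing the data, it was -0.43. At promoters the difference was -0.77 and lay below 0 in all 10 alternatives run, from -1.07 to -0.23, the last per kb of region. Ligands with a promoter region numbered 18 of 20 when regions needed 10 reads, and 7 with the 7 class 3 ligands alone, by construction. Receptors numbered 8 to 10. The share of all genes was not taken with a minimum of 10 reads, so 64.6% is no background for the 18 of 20. Reads of single genes depended on the assignment. When regions over 100 kb from the TSS were left out, 18 of 30 were kept within counting error. The lowest, Sema3a, kept 25.7% of its reads. With the gene body and 5 kb upstream, 15 of 30 were kept, and the lowest, Sema4f, kept 34.3%. When regions needed 10 reads, 5 of 29 were kept, and the lowest, Sema7a, kept 48.6%. Motif shares in the 200 bases at region centres, also chosen after seeing the data, were lower or equal. There the members' shares elsewhere lay below those of all regions for RUNX (6.70% against 7.92%) and homeobox (13.4% against 13.9%), whereas in whole regions they lay above (14.4% against 13.6% and 22.2% against 20.6%). Leaving out lanes was not run because the lanes share 1 value. No paired analysis was possible because there is 1 group. Regions with 7 reads, the median, have intervals from 2.81 to 14.4 reads, so small regions were not ranked.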
